A study of Caenorhabditis elegans with 12 samples.

Results

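The nuclear-encoded genes of the mitochondrial respiratory chain were examined in Caenorhabditis elegans. They were chosen by name only, as every gene of the deposited table whose name starts with nuo-, sdha-, sdhb-, sdhd-, ucr-, cox-, cco-, atp-, asb- or asg-, together with gas-1, mev-1, isp-1, cyc-1 and clk-1, and without genes of the mitochondrial genome. The rule found 32 of the 46217 gene identifiers. Of these, 27 encode subunits of complexes I to V, 4 encode assembly factors of complex IV and 1, clk-1, encodes an enzyme of ubiquinone synthesis. All 32 carry Gene Ontology terms in the table, and 29 of them have a term that names the mitochondrion or a respiratory complex. Many subunits of complexes I and IV bear other names in the table and are given separately as a comparison.

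RNA from whole day 1 adult hermaphrodites grown at 20 °C was sequenced from 12 samples, 3 for each of 4 strains. The wild type is N2. The cpl-1* strain carries an integrated transgene that makes a misfolding form of CPL-1, a protease like cathepsin L, with a fluorescent tag from the intestinal nhx-2 promoter. The study used pharyngeal myo-2p::mCherry as a transgenic marker in cpl-1* worms. The rde-1(ne219); cpl-1* strain, here called the rde-1(ne219) strain, carries the transgene as well as ne219, a loss-of-function allele of rde-1, the Argonaute protein of RNA interference by exogenous double-stranded RNA. The labels of the 2 strains with this transgene describe its substitutions and tag differently, so the 2 were not shown to carry an identical protein. The fourth strain, cpl-1WT, carries nhx-2p::cpl-1::YFP with a pharyngeal myo-2p::mCherry marker, and its values were not used here, so an effect of making CPL-1 in the intestine as such cannot be told apart from an effect of its misfolding. The transgene acts in the intestine, whereas the RNA came from all tissues, including the germ line.

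The respiratory chain passes electrons from NADH through complex I, or from succinate through complex II, to ubiquinone, then through complex III and cytochrome c to complex IV, which reduces oxygen. The proton gradient built on the way drives complex V, the ATP synthase. Most subunits are made from nuclear genes and imported, while a small core is made inside the mitochondrion from its own genome. In worms, the chain is known for mutants and knockdowns that alter lifespan and behaviour, among them gas-1, nuo-6, mev-1, isp-1 and clk-1, and for the knockdown of cco-1, which is now named cox-5B.

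Each gene has a single value per strain, which the authors pooled over the samples of that strain. Values are in FPKM (fragment counts scaled to transcript length and between libraries). No spread between worms or libraries is known, the sequencing depth behind the values is unknown, and no difference given here could be tested. A gene is called higher or lower where (FPKM + 1) differed by at least 1.5-fold, or 0.58 on the log2 scale. The same calls over the 14890 genes with a mean of at least 1 FPKM serve as the background. The comparison of the rde-1(ne219) strain with wild type follows from the other 2 comparisons and adds no measurement.

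The respiratory chain genes were abundant, and their order of abundance was much alike in the 3 strains. Their median was 255 FPKM in wild type, 248 in cpl-1* and 231 in the rde-1(ne219) strain. They summed to 10953, 11124 and 10599 FPKM in that order, or 1.07%, 1.08% and 1.09% of all FPKM. The median member ranked 606th, 626th and 624th among all genes. The levels of the 32 genes correlated across genes with a Spearman's rho of 0.996 between wild type and cpl-1* and 0.972 between cpl-1* and the rde-1(ne219) strain, values that describe genes of the same pooled libraries and carry no test.

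**Figure D1:**
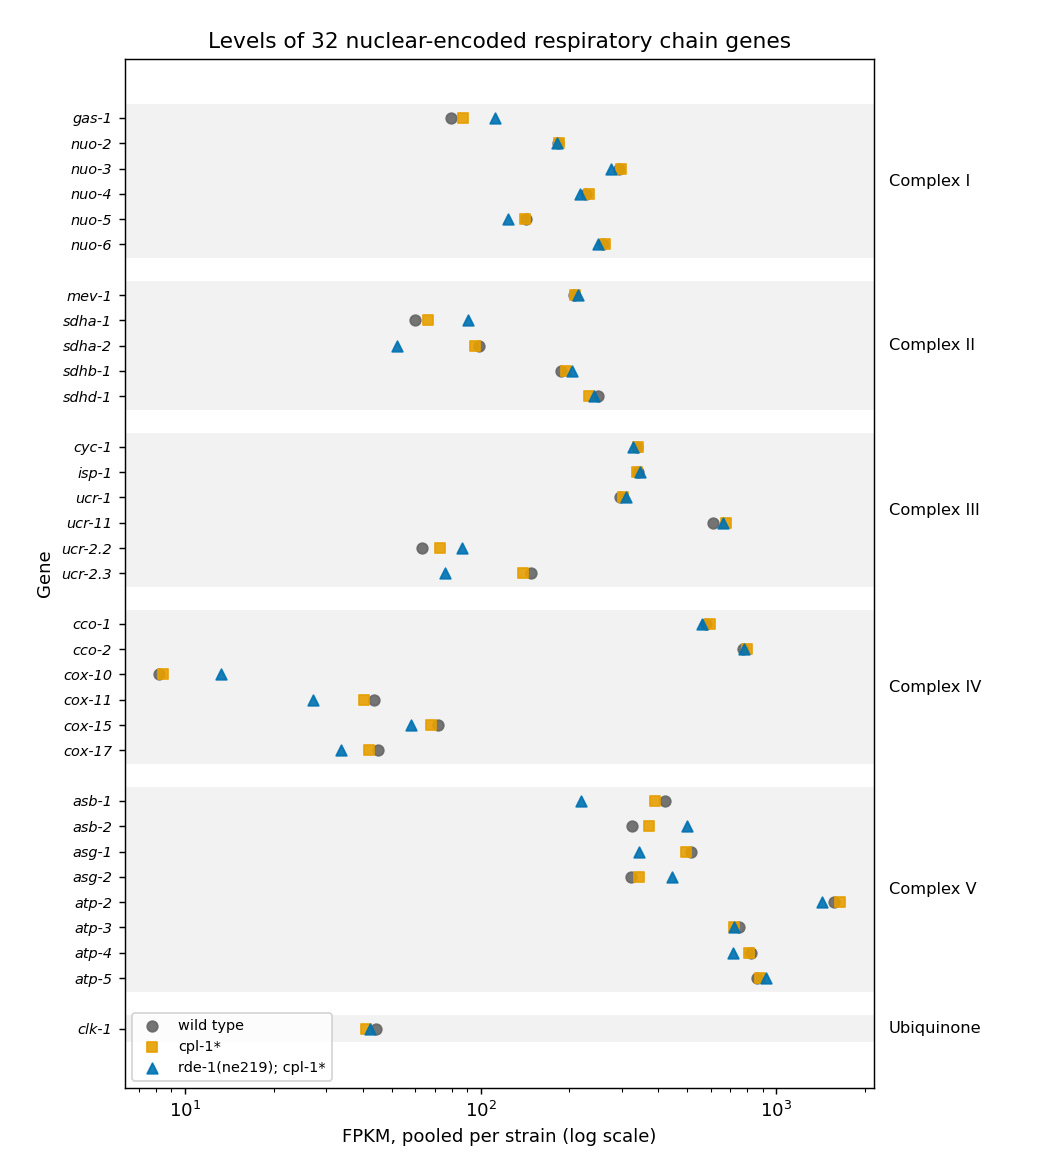
FPKM of the 32 genes in wild type (grey circles), cpl-1* (orange squares) and the rde-1(ne219) strain (blue triangles), 1 pooled value per strain with no error, on a log axis and grouped by complex. Wild-type levels run from 8.16 FPKM for cox-10 to 1571 FPKM for atp-2, and wild type and cpl-1* lie close together throughout.

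The comparison of cpl-1* with wild type asks how the transcriptome of worms that make misfolding CPL-1 in the intestine differs. None of the 32 genes was called in either direction, whereas 16.8% of all genes compared were higher and 4.02% lower in cpl-1*. Among the 3430 genes with a mean of at least 50 FPKM, where 28 of the 32 lie, 9.71% were called in either direction. The median log2 ratio of the 32 genes was 0.01, against -0.03 over all genes compared and -0.07 over those of at least 50 FPKM. All 32 lay within 1.2-fold, as did 57.6% of all genes compared and 79.5% of those of at least 50 FPKM. The largest difference was that of ucr-2.2, at a log2 ratio of 0.20. At the other end stood cox-11 at -0.12, asb-1 at -0.12, clk-1 at -0.11 and sdhd-1 at -0.10.

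The comparison of the rde-1(ne219) strain with cpl-1* asks how worms with the transgene and the rde-1 allele differ from cpl-1* worms. As the labels of their transgenes differ, a difference cannot be assigned to the allele alone. A single gene, cox-10, was called higher, against 33.3% of all genes compared, and 3 genes, asb-1, sdha-2 and ucr-2.3, were called lower, against 25.1%. Of the genes of at least 50 FPKM, 47.9% were called in either direction. The median log2 ratio of the 32 genes was -0.03, against 0.08 over all genes compared and -0.36 over those of at least 50 FPKM. Within 1.2-fold were 21 of the 32 genes, 18.6% of all genes compared and 27.3% of those of at least 50 FPKM. Against wild type, 3 genes were called higher in the rde-1(ne219) strain, namely asb-2, cox-10 and sdha-1, where 36% of all genes were, and 4 were called lower, namely asb-1, cox-11, sdha-2 and ucr-2.3, where 29.7% were. Of the genes of at least 50 FPKM, 54.8% were called in that comparison.

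These calls depend on how the strains are scaled to each other. The study's qRT-PCR reference mRNAs, cdc-42 and pmp-3, had mean log2 ratios of -0.11 in cpl-1* against wild type and -0.42 in the rde-1(ne219) strain against cpl-1*, so that scaling to them moves every gene up by those amounts. The 2 references did not move alike. In the second comparison cdc-42 stood at -0.10 and pmp-3 at -0.74. The ratios below are on the authors' scaling. Turns of direction are named for complex I, paired genes, germ line markers and assembly factors. The rest follow these limits, for single genes and for group medians alike. In the second comparison, a ratio between -0.42 and 0 turns positive relative to cdc-42 and pmp-3. One between 0 and 0.08 turns negative relative to the median of all genes. In the first, a ratio between -0.11 and 0 turns positive relative to the 2 references.

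**Figure D2:**
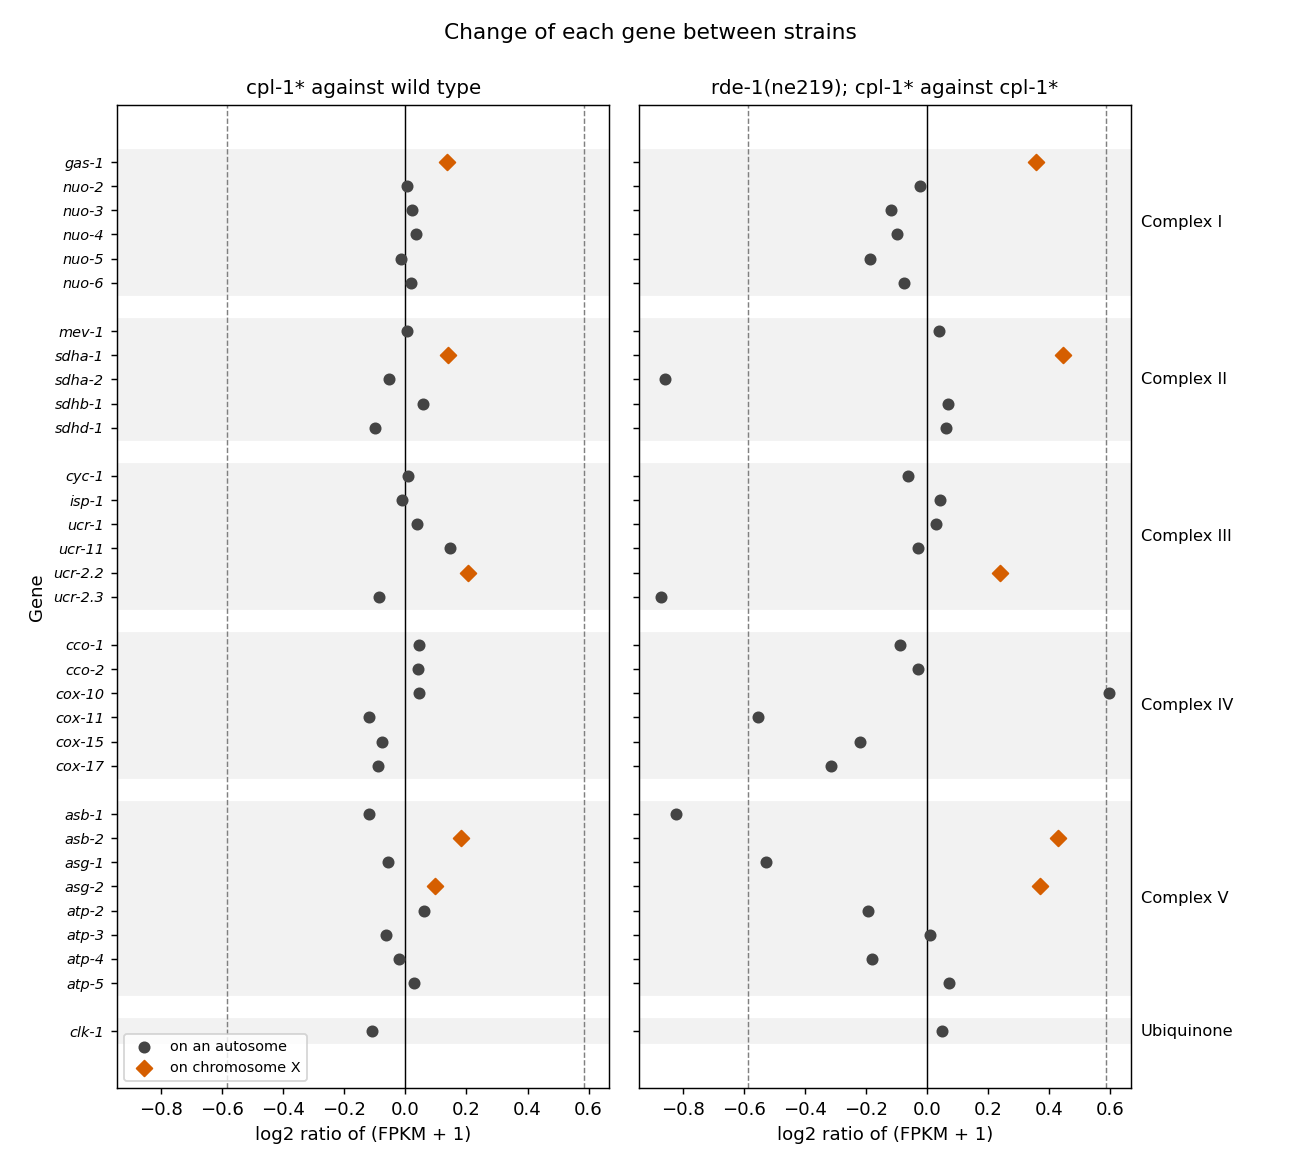
Log2 ratio of (FPKM + 1) for each of the 32 genes in cpl-1* against wild type (left) and in the rde-1(ne219) strain against cpl-1* (right), grouped by complex, with genes on chromosome X as orange diamonds, autosomal genes as dark circles and dashed lines at 1.5-fold. All points on the left lie between -0.12 and 0.20, while on the right asb-1, sdha-2 and ucr-2.3 lie below the lower line, and the 5 X-linked genes lie between 0.24 and 0.44.

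Complex I oxidises NADH and is the entry point for most electrons. Its 6 members by name summed to 1187 FPKM in wild type, 1208 in cpl-1* and 1160 in the rde-1(ne219) strain. The most abundant, the accessory subunit gene nuo-3, had 294, 299 and 275 FPKM in that order of strains, a log2 ratio of -0.12 between the last 2. The accessory membrane subunit gene nuo-6 had 260, 264 and 250 FPKM. Of the 6 genes, 5 lay below 0 and 1 above 0 in the rde-1(ne219) strain against cpl-1*. The core subunit gene nuo-2, and the genes nuo-4 and nuo-5, had log2 ratios of -0.02, -0.10 and -0.19 in that comparison. Relative to cdc-42 and pmp-3, all 6 lay above 0 in both comparisons.

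Complex II oxidises succinate and also works in the tricarboxylic acid cycle. Its 5 members summed to 803, 797 and 804 FPKM. The gene of the membrane anchor SDHD-1 was the most abundant, with 249, 232 and 242 FPKM. The cytochrome b anchor gene mev-1, known from a mutant sensitive to oxygen, had 208, 209 and 214 FPKM. The iron-sulfur protein gene sdhb-1 had 187, 195 and 205 FPKM. The catalytic flavoprotein is encoded by 2 genes, which moved apart. The autosomal sdha-2 had 99.1, 95.4 and 52.2 FPKM, with a log2 ratio of -0.86 in the rde-1(ne219) strain against cpl-1*. The X-linked sdha-1, the least abundant of complex II in wild type, had 60.0, 66.2 and 90.4 FPKM, with a log2 ratio of 0.44. Against wild type, sdha-1 lay at 0.585, just past the 1.5-fold limit.

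Complex III passes electrons from ubiquinol to cytochrome c. Its 6 members summed to 1800, 1873 and 1810 FPKM. The small subunit gene ucr-11 was the most abundant, with 612, 677 and 663 FPKM. The catalytic subunits kept close to their wild-type levels. The gene of the Rieske iron-sulfur protein, isp-1, had 340, 337 and 348 FPKM, and that of cytochrome c1, cyc-1, had 340, 342 and 327 FPKM. The core protein gene ucr-1 had 297, 305 and 311 FPKM. Core protein 2 is encoded by several genes. The autosomal ucr-2.3 had 148, 140 and 75.9 FPKM and, at a log2 ratio of -0.87, was the lowest of all 32 genes in the rde-1(ne219) strain against cpl-1*. The X-linked ucr-2.2 had 63.2, 73.0 and 86.3 FPKM, with log2 ratios of 0.20 and 0.24. The value of ucr-2.2 shares its locus with the collagen gene col-41, which had 0.244, 9.27 and 116 FPKM, and that of ucr-2.3 with zer-1, which had 70.0, 62.4 and 49.1 FPKM. How reads were divided between them was not tested. Another such gene, ucr-2.1, is listed only in a row shared with sams-1 and has no value of its own.

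Complex IV reduces oxygen to water. The 2 subunit genes found by name differed little between strains. The gene cco-2, now cox-5A, had 773, 796 and 780 FPKM, and cco-1 had 580, 598 and 563 FPKM. The 4 assembly factor genes were far less abundant and varied more. The gene of the heme O synthase, cox-10, was the least abundant of all 32 and had 8.16, 8.45 and 13.3 FPKM, with log2 ratios of 0.04 and 0.59. It drops below the 1.5-fold limit when ratios are taken relative to the median of all genes. The copper delivery factor gene cox-11 had 43.8, 40.2 and 27.1 FPKM, with a log2 ratio of -0.55. The copper chaperone gene cox-17 had 44.9, 42.1 and 33.7 FPKM, and the heme A synthase gene cox-15 had 71.8, 68.0 and 58.3 FPKM. Their log2 ratios of -0.31 and -0.22 turn positive relative to cdc-42 and pmp-3, whereas that of cox-11 does not.

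Complex V makes ATP and held the most abundant members, whose 8 genes summed to 5597, 5651 and 5307 FPKM. The catalytic beta subunit gene atp-2 was the highest of all 32, with 1571, 1640 and 1433 FPKM and log2 ratios of 0.06 and -0.19. The gene of the oligomycin sensitivity conferring protein, atp-3, had 751, 718 and 723 FPKM. The coupling factor 6 gene atp-4 had 824, 812 and 717 FPKM, and the d subunit gene atp-5 had 865, 881 and 926 FPKM. The 4 genes of the b and g subunits, which belong to the stalk and membrane parts, differed most. The autosomal b subunit gene asb-1 had 421, 388 and 219 FPKM, with log2 ratios of -0.12 and -0.82. The X-linked asb-2 had 326, 370 and 498 FPKM, with log2 ratios of 0.18 and 0.43. The autosomal g subunit gene asg-1 had 517, 497 and 345 FPKM, with log2 ratios of -0.06 and -0.53, and the X-linked asg-2, the least abundant in wild type, had 322, 345 and 446 FPKM, with log2 ratios of 0.10 and 0.37. Against wild type, asg-1 lay at -0.584, just short of the 1.5-fold limit.

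The ubiquinone synthesis gene clk-1, which encodes demethoxyubiquinone hydroxylase, had 44.2, 40.9 and 42.3 FPKM, with log2 ratios of -0.11 and 0.05.

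All 3 genes called lower in the rde-1(ne219) strain against cpl-1* belong to pairs of alternative genes for the same subunit. In each of the 4 pairs described here, 1 gene is autosomal and the other X-linked. By the Ensembl annotation of WBcel235, asb-1 lies on chromosome III from 4594543 to 4595821 and asb-2 on X from 4469766 to 4471476. The g subunit genes are asg-1 on I from 8692946 to 8693468 and asg-2 on X from 6841258 to 6842121. The flavoprotein genes are sdha-2 on I from 10683270 to 10685587 and sdha-1 on X from 8542757 to 8546021, and the core protein genes are ucr-2.3 on III from 879860 to 881458 and ucr-2.2 on X from 15173904 to 15178145. These spans cover whole genes, exons and introns included.

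In every pair the autosomal gene gave the larger share of the summed FPKM in wild type and cpl-1* and the smaller share in the rde-1(ne219) strain. The share of asb-1 was 56.4% in wild type, 51.2% in cpl-1* and 30.5% in the rde-1(ne219) strain. That of asg-1 was 61.6%, 59.1% and 43.6%, that of sdha-2 was 62.3%, 59.0% and 36.6%, and that of ucr-2.3 was 70.1%, 65.7% and 46.8%. In cpl-1* against wild type the shift had the same direction in all 4 pairs but was smaller. These shares within a strain are the same under any scaling.

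On the authors' scaling, the sums of the pairs differed less than their autosomal genes did. The ratio of a sum lies between those of its 2 genes by construction. Relative to cdc-42 and pmp-3, the g subunit sum stood at 0.33 and asg-1 at -0.11 in the rde-1(ne219) strain against cpl-1*. On that scaling, every sum stood further from 0 than its autosomal gene in cpl-1* against wild type. The b subunit genes together had 748 FPKM in wild type, 759 in cpl-1* and 718 in the rde-1(ne219) strain, a change of -5.43% between the last 2. The g subunit genes had 839, 842 and 790 FPKM, a change of -6.11%. The flavoprotein genes had 159, 162 and 143 FPKM, a change of -11.8%, and the core protein genes 211, 213 and 162 FPKM, a change of -23.7%. The core protein sum and shares leave out ucr-2.1, which has no value of its own. Both ucr-2.2 and ucr-2.3 also share a locus with another gene. All 4 changes turn positive when scaled to cdc-42 and pmp-3, under which the autosomal genes remain below 0 and the X-linked genes above 0 in this comparison. In cpl-1* against wild type the X-linked genes lay above 0 under every scaling, and the autosomal genes below 0, except that asg-1, sdha-2 and ucr-2.3 turn positive relative to cdc-42 and pmp-3.

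**Figure D3:**
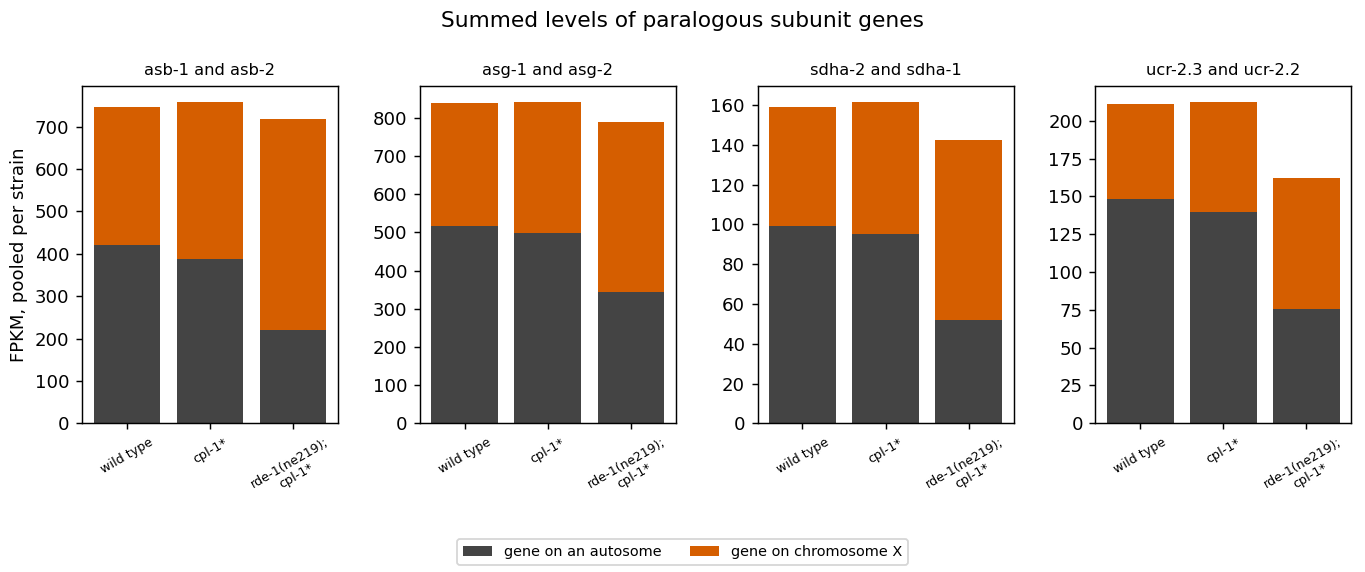
FPKM of 2 genes for the same subunit stacked in wild type, cpl-1* and the rde-1(ne219) strain, with the autosomal gene in dark grey and the X-linked gene in orange, 1 pooled value per strain with no error and axes from 0. The autosomal share is above 50% in wild type and cpl-1* and below 50% in the rde-1(ne219) strain in all 4 panels.

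The 5 X-linked genes, asb-2, asg-2, gas-1, sdha-1 and ucr-2.2, all lay above 0 in every comparison, with medians of 0.14 in cpl-1* against wild type and 0.37 in the rde-1(ne219) strain against cpl-1*. X-linked genes in general differed from autosomal ones in the second comparison. The median was 0.42 over 2002 X-linked genes compared and 0.00 over 12869 autosomal ones, and in cpl-1* against wild type it was 0.00 and -0.03. The 18 autosomal subunit genes without a paired gene among the 32 ranged only from -0.19 to 0.07 in the rde-1(ne219) strain against cpl-1*, with a median of -0.03.

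Markers of tissues differed in the same comparison, and some also in cpl-1* against wild type. In the latter, 9 of 10 cuticle and 10 of 11 sperm markers were called higher, with medians of 3.75 and 1.08. So were 1 of 10 muscle and 1 of 9 intestinal markers, and 1 intestinal marker was called lower. No germ line, oocyte and eggshell or neuronal marker was called. Of all genes compared, 16.8% were called higher and 4.02% lower in cpl-1* against wild type. In C. elegans the X chromosome is largely silent in most of the germ line, and ASB-1 is known as a form of the b subunit of the germ line. All 13 germ line markers lay below 0 in the rde-1(ne219) strain against cpl-1*, 9 were called lower, and they summed to 3126 FPKM in wild type, 2937 in cpl-1* and 1307 in the rde-1(ne219) strain. Relative to cdc-42 and pmp-3, glh-1 and syp-1 of the germ line list lay above 0. All 16 oocyte and eggshell markers found were called lower, with a median of -2.11, and they summed to 9162, 8732 and 2004 FPKM. The counts called lower on both lists are to be read against the 25.1% of all genes called lower there. In the other direction, 10 of 11 sperm markers, 7 of 9 neuronal, 3 of 10 body wall muscle, 4 of 9 intestinal and 9 of 10 cuticle markers were called higher, to be read against the 33.3% of all genes called higher there. The intestinal asp-1, with 2003 FPKM in cpl-1* and 1283 in the rde-1(ne219) strain, and the cuticle collagen gene col-19, with 1837 and 745 FPKM, were called lower. The sums of sperm markers were 260, 588 and 1069 FPKM, those of neuronal markers 365, 350 and 474, those of muscle markers 3447, 4137 and 5012, those of intestinal markers 2822, 3026 and 2804, and those of cuticle markers 1762, 2421 and 4870. In wild type, asp-1 had 1929 FPKM and col-19 had 1714, so most of the intestinal and cuticle sums came from 1 gene each. In the rde-1(ne219) strain against cpl-1*, 7 of 9 intestinal and 9 of 10 cuticle markers lay above 0. No marker was at 0 in all strains. In these whole-worm values, fewer cells of a type and less RNA per cell cannot be told apart, and the part of the germ line in the exchange of paired genes was not tested. Whether worms of the strains were at the same developmental stage when collected was not tested either.

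Most other genes of the oxidative machinery also differed little. Of all genes compared, 16.8% were called higher and 4.02% lower in cpl-1* against wild type. In the rde-1(ne219) strain against cpl-1*, 33.3% were called higher and 25.1% lower. Of 8 further subunits and partners looked up by name, the cytochrome c gene cyc-2.2 was called higher in both comparisons, 1 other gene was called lower in the second, and the medians were 0.01 and -0.13. Of 28 further nuclear subunits and factors known by their present names, a list made after the data had been seen, none was called in either comparison. Their medians were -0.01 and -0.11, and the log2 ratios in the rde-1(ne219) strain against cpl-1* ran from -0.31 to 0.07. The lowest of them were cox-18 and nduf-9, and the alpha subunit gene atp-1 had 1243, 1326 and 1139 FPKM. Of the 9 rows of the mitochondrial genome, the medians were 0.05 and 0.12, and only the NADH dehydrogenase gene nduo-2, with 19.5, 35.6 and 47.8 FPKM, was called, with the higher value in cpl-1* in the comparison with wild type.

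Genes around the chain were mostly uncalled too. Their counts are to be read against the same shares of all genes compared. These were 16.8% higher and 4.02% lower in cpl-1* against wild type, and 33.3% and 25.1% in the second comparison. Of 12 genes for ADP/ATP carriers and mitochondrial import at 1 FPKM or more, the carrier genes ant-1.3 and ant-1.4 were called higher in both comparisons and none lower, with medians of 0.01 and -0.16. Of 4 genes of lactate, glyoxylate, sulfide and uncoupling routes, the glyoxylate cycle gene icl-1 was called lower in cpl-1* against wild type and the uncoupling protein gene ucp-4 lower in the second comparison. None of 17 genes of the tricarboxylic acid cycle and pyruvate dehydrogenase was called in either comparison, with medians of 0.05 and -0.08. None of 7 ubiquinone synthesis genes was called, with medians of 0.01 and -0.15, the lowest being coq-5 with 81.8, 83.0 and 59.8 FPKM. Of 9 regulators of mitochondrial biogenesis and stress, all lay below 0 in cpl-1* against wild type, with a median of -0.12 that is close to the shift of the 2 reference mRNAs, and none was called there. In the second comparison 1 of them, dve-1, a transcription factor of the mitochondrial unfolded protein response, was called higher, with 10.8, 9.86 and 20.2 FPKM.

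**Figure D4:**
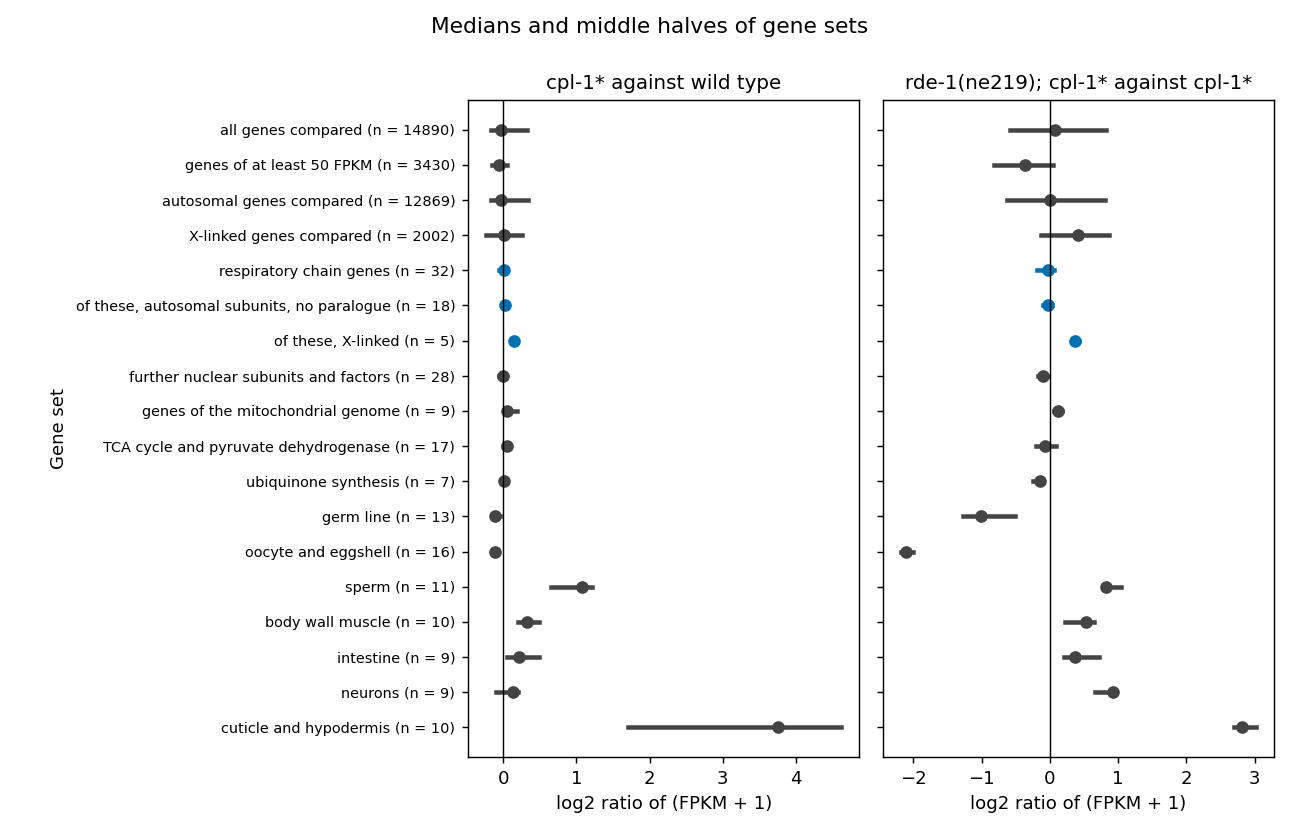
Median log2 ratio of (FPKM + 1) (points) and the range from the 25th to the 75th percentile over genes (bars) for the respiratory chain genes (blue) and other gene sets (grey), in cpl-1* against wild type (left) and the rde-1(ne219) strain against cpl-1* (right); n is the number of genes, not of samples. The respiratory chain genes have medians of 0.01 and -0.03, while oocyte and eggshell genes lie at -2.11 and cuticle genes at 2.81 on the right, on the authors' scaling.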

How the data were processed

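Per the labels, whole-worm RNA of 12 samples was sequenced. The submitters' processing notes name FastQC 0.11.7, HISAT2 2.1.0, StringTie 1.3.4d and Cuffdiff 2.2.1, and the study mapped reads to the WBcel235 transcriptome of Ensembl release 91. The deposited values are FPKM that the authors pooled per strain, so tests per sample could not be run and the planned description was used instead. The authors' own fold changes, P values and q values, which the table also holds for 3 comparisons, were not used.

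Log2 ratios were taken of FPKM plus a pseudocount of 1, over genes with a mean of at least 1 FPKM in 3 strains, with Python 3.11.15, pandas 2.3.3 and numpy 2.4.6. The calculation recovered known shifts that were put into the cpl-1* values, which checks the arithmetic only. Gene positions and present names came from Ensembl release 115 of the same build, which matched all 32 genes. Depth is unknown, and 6 of the 32 genes share a locus with another gene at 1 FPKM or more, so that their values rest on how reads were divided.

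The members and lists were chosen with earlier results of these data known. All members could be named. Except for some single-gene results that are not reported here, full values were given for the 4 largest differences each way per comparison, the most and least abundant gene of each complex, paralogues, and genes known from mutants or knockdowns, and of the other lists at most 4 genes with the highest or lowest ratios were named, unless stated. Alternatives were other pseudocounts, filters, scalings, folds and member sets.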

Additional observations from a re-analysis of the deposited data

How the results depend on the processing

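No paired analysis was possible because each deposited value pools all samples of its strain, and leaving out single replicates was not run for the same reason. No gene was called in cpl-1* against wild type under any alternative, and no called value changed sign. In the rde-1(ne219) strain against cpl-1*, where 1 gene was higher and 3 lower, the count of higher genes was 0 with a mean of at least 10 or 50 FPKM, relative to the median of all genes, at a fold of 2 and among structural subunits alone, and 6 relative to cdc-42 and pmp-3. The count of lower genes was 5 relative to the median, and 0 relative to cdc-42 and pmp-3, at a fold of 2 and with paralogues summed. Against wild type, where 3 genes were higher and 4 lower, the count of higher genes was 1 relative to the median, 10 relative to cdc-42 and pmp-3, 0 at a fold of 2 and 1 with paralogues summed. The count of lower genes was 0 relative to cdc-42 and pmp-3, 0 at a fold of 2 and 1 with paralogues summed. Relative to cdc-42 and pmp-3 the medians of the 32 genes were 0.12 in cpl-1* against wild type, 0.39 in the rde-1(ne219) strain against cpl-1* and 0.48 in the rde-1(ne219) strain against wild type. The fold and the scaling act by construction, and no further cause was tested. Of 348 values of named genes under the alternatives, 315 stayed within 0.1 on the log2 scale, and the other 33 moved, all relative to cdc-42 and pmp-3. Other folds, filters and member sets leave the ratio of a gene unchanged by construction. Scaling shifts all genes of a comparison by 1 amount, which is below 0.1 for the median of all genes. Only the other pseudocounts could move genes singly, so the 315 values are not a measure of robustness. Summing paralogues and leaving out genes that share a locus were alternatives chosen after seeing the data, and the latter moved no count by over 1.5 times.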

Other observations

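The genes of the vacuolar ATPase, the proton pump of lysosomes and other acidic compartments and a distant relative of complex V, mostly had higher values in cpl-1* than in wild type. Of 18 vha genes, 17 lay above 0 in cpl-1* against wild type, with a median log2 ratio of 0.28 and a range from -0.11 to 0.40, and none was called. Of the 14890 genes compared, 6902 lay above 0 there, with a median of -0.03, and 16.8% were called higher and 4.02% lower. They summed to 4243 FPKM in wild type, 5013 in cpl-1* and 5220 in the rde-1(ne219) strain. The exception was vha-18, which had 72.8, 67.5 and 29.7 FPKM, and in the rde-1(ne219) strain against cpl-1* it was called lower, as was vha-7, with 39.6, 42.2 and 23.0 FPKM. In that comparison 25.1% of all genes compared were called lower. The list was made after the data had been seen.

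Some mitochondrial genes outside the name rule stood far from the rest. The ADP/ATP carrier genes ant-1.3 and ant-1.4 had 2.24 and 1.77 FPKM in wild type, 13.9 and 9.40 in cpl-1* and 57.8 and 43.2 in the rde-1(ne219) strain, whereas the main carrier gene ant-1.1 had 3419, 3437 and 3062 FPKM. The cytochrome c gene cyc-2.2 had 22.7, 56.0 and 109 FPKM. The sperm markers moved in the same direction, and their part in these values was not tested. The glyoxylate cycle gene icl-1 had 265 FPKM in wild type, 67.9 in cpl-1* and 100.1 in the rde-1(ne219) strain, or -1.95 on the log2 scale between the first pair of strains.

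Succinyl-CoA ligase, a tricarboxylic acid cycle enzyme, has alternative genes for each of its subunits, and these were picked after their values were seen. The alpha subunit genes were sucl-2 on an autosome, with 203, 202 and 138 FPKM, and sucl-1 on X, with 117, 133 and 158 FPKM. The beta subunit genes were sucg-1 on an autosome, with 125, 118 and 81.9 FPKM, and suca-1 on X, with 128, 155 and 161 FPKM.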
